A study of Sorghum bicolor with 24 samples.

Results

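Sugar that reaches a sorghum stem has to cross cell membranes before it can be used or stored, and the genes described here encode carriers for those steps. They were 7 genes of the 34117 in the count table, taken by identifier, with earlier results of these data known. The tonoplast sugar transporters (TST) were TST1 (Sobic.001G312900), TST2 (Sobic.004G099300) and TST3 (Sobic.010G276100). The SWEET genes were the SWEET13 tandem group, made up of Sobic.008G094000, Sobic.008G094300 and Sobic.008G094400, and SWEET4-3 (Sobic.004G133500). The 3 genes of the SWEET13 group are given by identifier throughout, since they share 1 name.

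As background, SWEET proteins are membrane carriers that let sugars pass down a concentration gradient. SWEET13 belongs to the branch of the family that carries mainly sucrose, and in maize leaves the SWEET13 copies release sucrose from cells next to the phloem for loading into the sieve elements. SWEET4 belongs to a branch that carries mainly hexoses, and in maize a SWEET4 gene is needed to fill the seed with sugar. TST proteins sit in the vacuole membrane and move sugar into the vacuole in exchange for protons, a role best described in Arabidopsis and in the sucrose-storing root of sugar beet. Sweet and bioenergy sorghums hold large amounts of sucrose in the vacuoles of stem parenchyma.

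All samples came from the sorghum cultivar Wray, grown under well-watered greenhouse conditions with 14 h days and sampled at 74 days in the vegetative phase. The internode at phytomer 8, the youngest one that had finished elongating, was taken from 4 plants. From 20 µm cryosections, laser capture microdissection collected phloem, vascular parenchyma, xylem sclerenchyma, epidermis and pith parenchyma, and whole stem of the same internodes was sequenced without capture. In every comparison with whole stem, a difference of cell type therefore cannot be told apart from an effect of capture. Each of these 6 groups had 4 replicates, which gave 24 libraries. The samples' names say vascular parenchyma, while the collection protocol says xylem parenchyma for what appears to be the same cells. The table pairs no identifier with a gene product, so the cell type labels were not checked against marker genes.

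Library totals were 2769555 to 38880291 counts over the 20 captured libraries and 16189208 to 29605470 over the 4 whole stem libraries. In every group except pith parenchyma, replicates 1 and 2 held fewer counts than replicates 3 and 4. Levels below are CPM, a gene's count scaled by the total of its library, without correction for gene length, so levels are compared between groups and not between genes. Captured libraries varied widely between replicates, with a median biological coefficient of variation of 1.25 over the genes tested. Xylem sclerenchyma replicate 2 was the xylem library most like phloem: its mean Spearman correlation across genes with the phloem libraries was 0.737, against 0.664 to 0.721 for the other 3, and 0.749 with its own group. Phloem replicate 3 had 11021 genes above 1 CPM, against 15291 to 17125 in the other phloem libraries. In bulk RNA of this kind, fewer cells of a type and less RNA per cell cannot be told apart.

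Each of the 4 SWEET genes had its highest group mean in phloem, and each was higher there than in whole stem at the thresholds used, by 7.49-fold to 15.8-fold. Their lowest 2 group means were those of epidermis and pith parenchyma. The TST genes had another order: whole stem held the highest mean of TST1 and of TST2, epidermis held the lowest, and TST3 had counts in 1 library.

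Sobic.008G094000, of the SWEET13 group of sucrose carriers, had its highest levels in phloem and had counts in 23 of the 24 libraries. It had 1407, 1956, 2166 and 1159 CPM in phloem replicates 1 to 4. Vascular parenchyma had 226, 246, 172 and 36.1 CPM and xylem sclerenchyma 13.3, 617, 6.53 and 22.1 CPM. All 4 phloem libraries were above all 20 other libraries, and within xylem sclerenchyma replicate 2 stood far above the rest. Epidermis had 0, 4.56, 2.60 and 2.25 CPM, pith parenchyma 1.93, 0.447, 17.9 and 16.4 CPM, and whole stem 203, 183, 136 and 126 CPM. Whole stem therefore lay above every epidermis and pith library and below every phloem library. The means were 1672 ± 468 CPM in phloem and 162 ± 37.0 CPM in whole stem (SD, n = 4 each). That difference was 3.43 on the log2 scale (SE 0.268, edgeR quasi-likelihood test, Benjamini-Hochberg adjusted p = 0.000298), or 10.8-fold.

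Sobic.008G094400 had the same outline at its own scale. Its phloem libraries had 291, 572, 973 and 269 CPM. Vascular parenchyma had 29.5, 75.4, 55.7 and 0 CPM, and xylem sclerenchyma 0, 132, 2.70 and 7.03 CPM. Here too every phloem library was above all 20 others, and xylem sclerenchyma replicate 2 was again the highest of the xylem libraries. Epidermis had 15.7, 1.62, 0 and 0 CPM, pith parenchyma 1.20, 0, 6.31 and 0.235 CPM, and whole stem 42.6, 42.3, 35.4 and 19.7 CPM. The phloem mean of 526 ± 328 CPM stood against 35.0 ± 10.7 CPM in whole stem (SD, n = 4 each). The log2 difference was 3.98 (SE 0.496, edgeR adjusted p = 0.00219), or 15.8-fold.

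Sobic.008G094300 was at 0 outside the vascular types among the captured libraries. Phloem had 30.8, 33.7, 229 and 26.1 CPM, vascular parenchyma 1.17, 20.0, 14.3 and 0 CPM, and xylem sclerenchyma 0, 79.6, 0.462 and 0 CPM. Whole stem had 5.31, 10.6, 5.06 and 2.89 CPM. The gene was at 0 in all 4 epidermis and all 4 pith parenchyma libraries, where a floor of 3 counts per library amounts to a mean of 0.190 CPM in epidermis and 0.277 CPM in pith. Phloem replicate 3 alone set the phloem mean: it was 79.8 ± 99.3 CPM (SD, n = 4) with that library and 30.2 ± 3.81 CPM (SD, n = 3) without it. Against whole stem, at 5.97 ± 3.30 CPM (SD, n = 4), phloem was higher by 3.84 on the log2 scale (SE 0.882, edgeR adjusted p = 0.0202). Without phloem replicate 3 the log2 difference was 2.39, and the call was lost without whole stem replicate 1, 3 or 4 (adjusted p = 0.0676, 0.0699 and 0.0697) or with the depth split of replicates 1 and 2 against 3 and 4 as a covariate (adjusted p = 0.0539). DESeq2 gave no adjusted p for this difference, so it neither made nor refused the call.

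SWEET4-3, of the branch that carries mainly hexoses, also had its highest values in phloem. Phloem had 414, 684, 261 and 490 CPM. Vascular parenchyma had 70.0, 64.5, 26.4 and 54.7 CPM, and xylem sclerenchyma 13.3, 290, 0 and 14.4 CPM. The phloem range overlapped with 1 other library, xylem sclerenchyma replicate 2. Epidermis had 25.9, 0.190, 3.14 and 0.749 CPM, pith parenchyma 68.2, 6.52, 5.09 and 33.3 CPM, and whole stem 63.7, 83.2, 72.9 and 35.7 CPM. Pith, unlike epidermis, reached the whole stem range in 1 library. Phloem averaged 462 ± 176 CPM and whole stem 63.9 ± 20.4 CPM (SD, n = 4 each), a log2 difference of 2.90 (SE 0.348, edgeR adjusted p = 0.00187), or 7.49-fold.

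**Figure D1:**
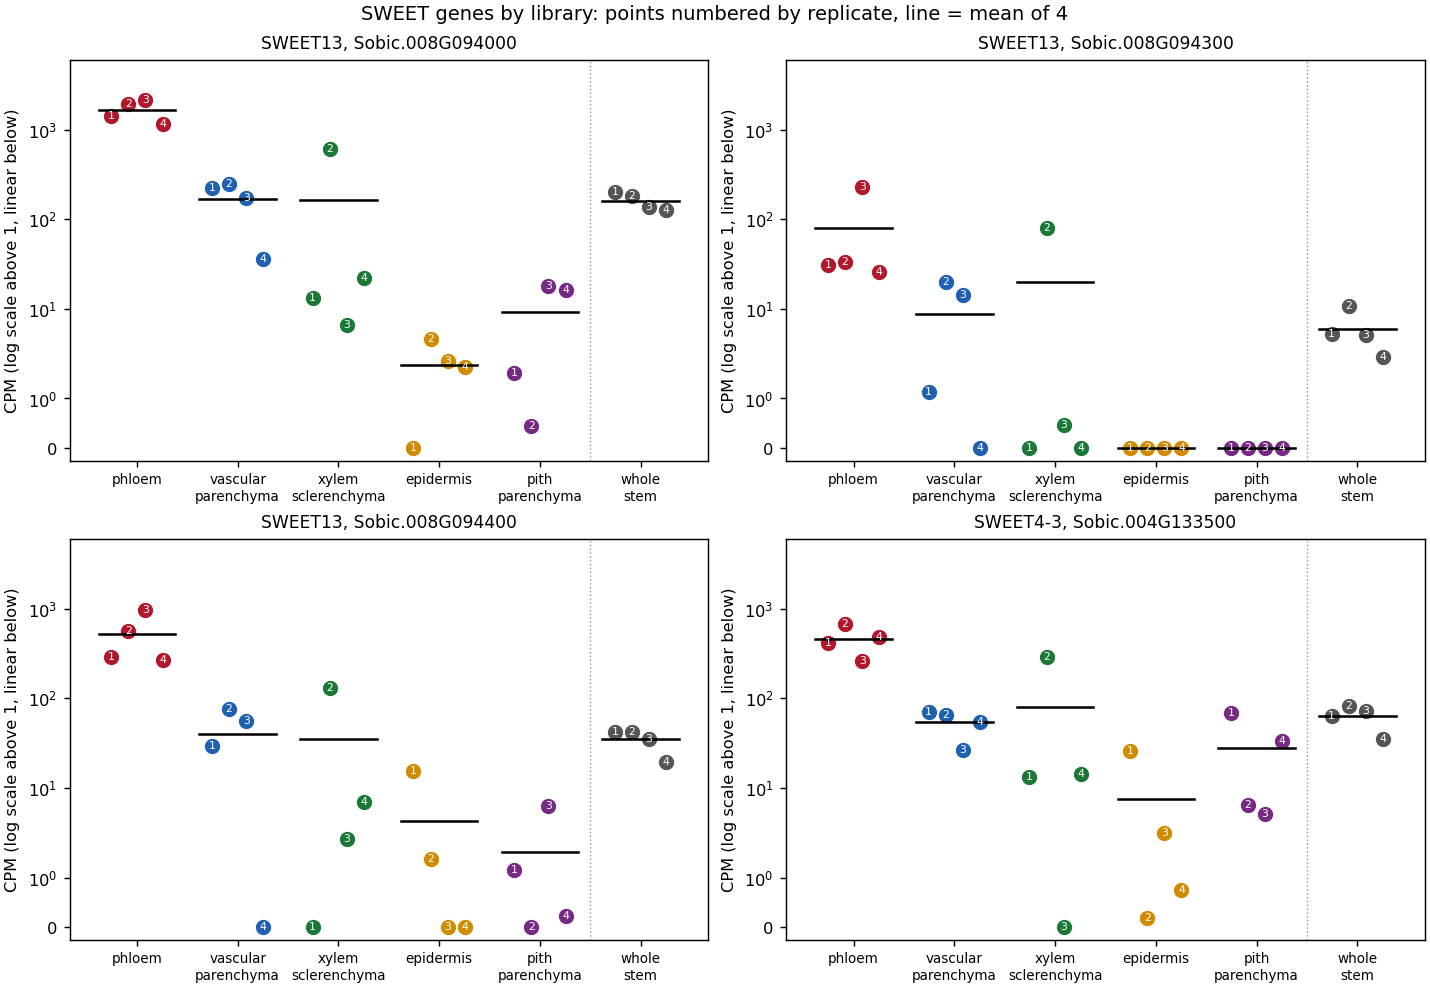
CPM of the 4 SWEET genes in each of the 24 libraries, 1 panel per gene, with the groups along the horizontal axis and a vertical axis that is linear near 0 and logarithmic above; points are libraries and bars are group means. The phloem mean sits highest in each panel, with xylem sclerenchyma replicate 2 (617, 79.6, 132 and 290 CPM for Sobic.008G094000, Sobic.008G094300, Sobic.008G094400 and SWEET4-3) standing apart from the other xylem libraries.

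Of 19904 genes tested between phloem and whole stem, 13.4% were called in either direction, 4.62% higher and 8.75% lower in phloem, at an edgeR adjusted p under 0.05 and a log2 difference of at least 1. Of the 6 members tested, 5 were called: the 4 SWEET genes higher and TST1 lower. Ranked from the most phloem-high gene down, Sobic.008G094400 was in place 100, Sobic.008G094300 in place 153, Sobic.008G094000 in place 295 and SWEET4-3 in place 515. The median log2 difference was 3.17 over the 6 members and -0.16 over all genes tested. The count and the median include the SWEET13 genes, whose split of reads with similar genes is uncertain, as described below. The 5 calls rest on the 8 libraries compared. With all 24 libraries in 1 fit, none of the 5 was called (edgeR adjusted p = 0.169, 0.405, 0.336 and 0.345 for Sobic.008G094000, Sobic.008G094300, Sobic.008G094400 and SWEET4-3, and 0.0601 for TST1). In that fit 2 members had an unadjusted p under 0.05. The share of all genes at either threshold in that fit is not given here, so the lost calls cannot be set against it. On the 8 libraries DESeq2 called 4 of these members and gave no adjusted p for Sobic.008G094300, while limma called all 5. Of all 19904 genes, DESeq2 called 4202 and limma 3965.

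Taking the 3 SWEET13 genes as 1 sum, phloem libraries held 1455 to 3368 CPM, with a mean of 2278 ± 865 CPM. The sum averaged 219 ± 129 CPM in vascular parenchyma, 220 ± 405 CPM in xylem sclerenchyma, 6.67 ± 6.25 CPM in epidermis, 11.1 ± 11.3 CPM in pith parenchyma and 203 ± 48.5 CPM in whole stem (SD, n = 4 each). The xylem mean was set by replicate 2, at 828 CPM. Without that library, Sobic.008G094000 averaged 14.0 ± 7.82 CPM in xylem sclerenchyma (SD, n = 3), and SWEET4-3 averaged 9.22 ± 8.01 CPM (SD, n = 3).

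The balance within the tandem group was compared as count ratios. For every 100 counts of Sobic.008G094000, phloem libraries held 20.7 to 44.9 counts of Sobic.008G094400, vascular parenchyma 0 to 32.5, the 3 xylem sclerenchyma libraries with at least 100 counts 21.3 to 41.3, and whole stem 15.6 to 26.1. The ratio of Sobic.008G094300 was 1.72 to 10.6 in phloem and 2.29 to 5.81 in whole stem. These ranges overlapped between groups, and no test was run on them. The labels do not say how the counting treated reads that match several similar genes. Estimated counts were more than 1e-06 from a whole number in 14 of 23 libraries above 0 for Sobic.008G094000, 12 of 13 for Sobic.008G094300, 14 of 19 for Sobic.008G094400 and 20 of 23 for SWEET4-3, against 19.6% of all values above 0 in the table, so the split of reads between these genes and similar ones is uncertain. TST1, TST2 and TST3 had whole-number counts in all libraries above 0. Sobic.008G094150, the only other identifier numbered between those of the tandem group, did not exceed 1.32 CPM in any library.

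The captured types were also compared with each other. An edgeR test for any difference across the 5 types called 16.0% of 19502 genes and 3 of the 6 members tested. These were TST1 (adjusted p = 0.000573), Sobic.008G094000 (adjusted p = 0.00227) and Sobic.008G094300 (adjusted p = 0.0219). Sobic.008G094400 (adjusted p = 0.0565), SWEET4-3 (adjusted p = 0.0864) and TST2 (adjusted p = 0.313) did not pass. Leaving out xylem sclerenchyma replicate 2 brought Sobic.008G094400 and SWEET4-3 past the threshold (adjusted p = 0.0244 and 0.0166), as did leaving out epidermis replicate 1 (adjusted p = 0.0262 and 0.0347). Each of the 2 genes also passed without 1 more library, Sobic.008G094400 without vascular parenchyma replicate 4 (adjusted p = 0.046) and SWEET4-3 without xylem sclerenchyma replicate 3 (adjusted p = 0.0291), and TST2 passed without epidermis replicate 2 (adjusted p = 0.0442).

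Phloem differed from epidermis in 3 of 6 members, where 8.59% of genes were called. Sobic.008G094000 was higher in phloem by 9.35 on the log2 scale (SE 1.83, edgeR adjusted p = 0.00416). Sobic.008G094300 was at least 419-fold higher in phloem, taking the count floor in epidermis (edgeR adjusted p = 0.0281), and at least 159-fold higher without phloem replicate 3. That call was lost without any 1 of the epidermis libraries or without phloem replicate 3 (adjusted p = 0.0517 to 0.0678). Sobic.008G094400 and SWEET4-3 had log2 differences of 6.94 and 5.89 and did not pass the threshold (edgeR adjusted p = 0.0936 and 0.0531). Both were called by DESeq2 (adjusted p = 0.00999 and 0.000163), by limma (adjusted p = 0.019 and 0.0227) and by edgeR with all 24 libraries in 1 fit (adjusted p = 0.0474 and 0.0243). SWEET4-3 was also called by edgeR with the depth split as a covariate (adjusted p = 0.0345), or without epidermis replicate 1 or xylem sclerenchyma replicate 2 or 3 (adjusted p = 0.0202 to 0.0263).

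In phloem against pith parenchyma, 5.52% of genes and 2 of 6 members were called. Sobic.008G094000 was higher in phloem by 7.46 on the log2 scale (SE 1.69, edgeR adjusted p = 0.0153), a call lost without pith replicate 1 (adjusted p = 0.0553). Sobic.008G094300 was at least 288-fold higher (edgeR adjusted p = 0.0446), and at least 109-fold higher without phloem replicate 3. The call was lost without any 1 of the phloem or pith libraries or vascular parenchyma replicate 1, 2 or 3 (adjusted p = 0.0572 to 0.108), with the depth split as a covariate (adjusted p = 0.0572) or without the filter on low counts (adjusted p = 0.0609). Sobic.008G094400 and SWEET4-3 had log2 differences of 8.12 and 3.97 (edgeR adjusted p = 0.082 and 0.175). Both were called by DESeq2 (adjusted p = 0.00169 and 0.0207) and limma (adjusted p = 0.0121 and 0.00288), and Sobic.008G094400 by edgeR with all 24 libraries in 1 fit (adjusted p = 0.0376).

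Among the 3 vascular types no member was called by edgeR, and few genes were. The share of genes called was 0.174% for phloem against vascular parenchyma, 0.487% for phloem against xylem sclerenchyma and 0.0308% for vascular parenchyma against xylem sclerenchyma. At an unadjusted p under 0.05 there were 1, 2 and 0 members in these pairs, against 1870, 1988 and 1959 of all 19502 genes. DESeq2 called 0, 0 and 0 members and limma with sample quality weights 4, 3 and 0. Both also called more genes than edgeR: of 19502, DESeq2 called 643, 755 and 660, and limma 1286, 1183 and 720. Sobic.008G094000 had a log2 difference of 3.16 between phloem and vascular parenchyma (edgeR adjusted p = 0.465, limma adjusted p = 7.2e-05), where the libraries of the pair did not overlap. Against xylem sclerenchyma its log2 difference was 3.28 (edgeR adjusted p = 0.418, limma adjusted p = 0.0023), and without xylem sclerenchyma replicate 2 it was 6.83 (adjusted p = 0.0356).

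Vascular parenchyma and xylem sclerenchyma also differed from epidermis in this gene. Sobic.008G094000 was higher in vascular parenchyma than in epidermis by 6.20 on the log2 scale (SE 1.60, edgeR adjusted p = 0.0197), a call lost without epidermis replicate 3 or 4 (adjusted p = 0.0515 and 0.0503) or with limma (adjusted p = 0.0887). It was higher in xylem sclerenchyma than in epidermis by 6.07 (SE 1.59, edgeR adjusted p = 0.0319), but this rested on 1 library. Without xylem sclerenchyma replicate 2 the log2 difference was 2.61 (adjusted p = 0.184). That call was also lost without any 1 of the epidermis libraries (adjusted p = 0.0519 to 0.0812), without the filter on low counts (adjusted p = 0.0598), with the depth split as a covariate (adjusted p = 0.0523) or with limma (adjusted p = 0.484). Between epidermis and pith parenchyma the 4 SWEET genes were not called.

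The pairs were also compared within replicates 1 and 2 and within replicates 3 and 4, where depth still differed between the groups compared. The log2 differences of Sobic.008G094000 had the same sign as with all libraries in each of its 4 called pairs. Phloem against epidermis gave 9.47 in replicates 1 and 2 and 9.30 in replicates 3 and 4 (edgeR adjusted p = 0.0571 and 0.0108), and phloem against pith parenchyma 10.5 and 6.64 (edgeR adjusted p = 0.154 and 0.0521). Vascular parenchyma against epidermis gave 6.77 and 5.51 (edgeR adjusted p = 0.107 and 0.0270). Xylem sclerenchyma against epidermis gave 7.09 in the set that holds xylem sclerenchyma replicate 2 and 2.58 in the other (edgeR adjusted p = 0.108 and 0.290). Sobic.008G094300 was called in neither set, with edgeR adjusted p = 0.157 and 0.311 against epidermis and 0.366 and 0.381 against pith parenchyma.

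Against whole stem, the low SWEET levels in epidermis and pith were tested separately. In epidermis 12.6% of genes and 3 of 6 members were called, all 3 lower: Sobic.008G094000, Sobic.008G094300 and TST1. Sobic.008G094400 and SWEET4-3 were not called in epidermis, with log2 differences of -2.91 and -2.97 (edgeR adjusted p = 0.496 and 0.231). Of 7 alternative settings, 1 called Sobic.008G094400 and 0 called SWEET4-3. Sobic.008G094000 averaged 2.35 ± 1.87 CPM in epidermis, against 162 ± 37.0 CPM in whole stem (SD, n = 4 each), a log2 difference of -5.92 (SE 1.05, edgeR adjusted p = 0.00687). Sobic.008G094300 was at least 31.4-fold lower in epidermis (edgeR adjusted p = 0.00835) and at least 21.6-fold lower in pith parenchyma (edgeR adjusted p = 0.0184). The pith call was the only one among 6 members, where 4.58% of genes were called, and it was lost without any 1 whole stem library (adjusted p = 0.0526 to 0.0816). In pith, Sobic.008G094000 and Sobic.008G094400 had log2 differences of -4.03 and -4.12 from whole stem (edgeR adjusted p = 0.0619 and 0.138). Both were called by DESeq2 (adjusted p = 0.000186 and 0.00545), by limma (adjusted p = 0.0208 and 0.0293) and by edgeR without pith replicate 2 (adjusted p = 0.0156 and 0.0448). Without pith replicate 3 Sobic.008G094400 was called too (adjusted p = 0.0155), as was Sobic.008G094000 without the filter on low counts (adjusted p = 0.0392). SWEET4-3 in pith had a log2 difference of -1.07 from whole stem and was not called (edgeR adjusted p = 0.598). In 1 fit of all 24 libraries both Sobic.008G094300 calls were lost (adjusted p = 0.0634 in epidermis and 0.197 in pith).

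**Figure D2:**
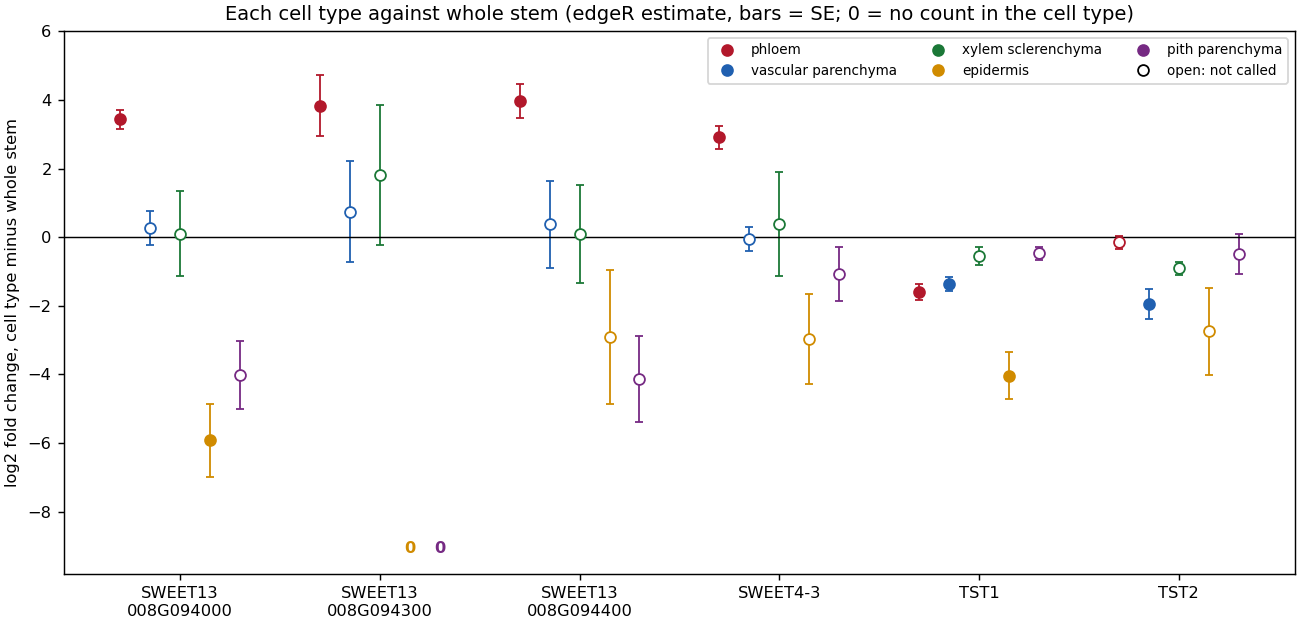
Log2 difference of each captured cell type from whole stem for the 6 members tested, with bars of 1 SE from the edgeR fit; filled points passed an adjusted p under 0.05 with a log2 difference of at least 1 in size, and the line at 0 marks the whole stem level; the digit 0 stands in place of a point where a cell type had no count. The 4 SWEET genes lie at 2.90 to 3.98 in phloem, while TST1 lies below 0 in all 5 types.

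TST1, the first of the vacuolar importers, was lowest in epidermis and highest in whole stem. Phloem had 274, 277, 391 and 511 CPM, vascular parenchyma 349, 481, 455 and 254 CPM, and xylem sclerenchyma 564, 488, 804 and 944 CPM. Epidermis had 80.1, 7.13, 72.2 and 85.4 CPM, pith parenchyma 673, 935, 843 and 682 CPM, and whole stem 1269, 1297, 986 and 993 CPM. All 20 captured libraries were below all 4 whole stem libraries, and all 4 epidermis libraries were below the other 20. Among captured types the highest means were 783 ± 128 CPM in pith parenchyma and 700 ± 211 CPM in xylem sclerenchyma, followed by 385 ± 104 CPM in vascular parenchyma, 363 ± 113 CPM in phloem and 61.2 ± 36.5 CPM in epidermis (SD, n = 4 each). Pith and xylem libraries overlapped, as did vascular parenchyma and phloem libraries. Both pith and xylem libraries, with the exception of xylem sclerenchyma replicate 2 at 488 CPM against 511 CPM in phloem replicate 4, were above all phloem and vascular parenchyma libraries.

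TST1 separated epidermis from each of the 4 other captured types. TST1 was higher than in epidermis by 2.45 on the log2 scale in phloem (SE 0.492, edgeR adjusted p = 0.00359). The difference was 2.69 in vascular parenchyma (SE 0.497, edgeR adjusted p = 0.00157) and 3.50 in xylem sclerenchyma (SE 0.515, edgeR adjusted p = 0.000374). Epidermis against pith parenchyma gave -3.57 (SE 0.517, edgeR adjusted p = 0.000494), an 11.9-fold lower level. Each of these 4 calls was kept in all 20 fits that left out 1 library. The same pairs within replicates 1 and 2 and within replicates 3 and 4, where depth also differed between groups, gave log2 differences of the same sign. Replicates 1 and 2 alone gave 2.66, 3.37, 3.59 and -4.12 for the 4 pairs in this order (edgeR adjusted p = 0.114, 0.0682, 0.0652 and 0.0577). Replicates 3 and 4 alone gave 2.41, 2.26, 3.57 and -3.11 (edgeR adjusted p = 0.0439, 0.0386, 0.0248 and 0.0562). The shares of genes called were 10.2% for vascular parenchyma against epidermis, 5.6% for xylem sclerenchyma against epidermis and 2.55% for epidermis against pith parenchyma, and the members called were 2, 2 and 1 of 6.

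TST1 in phloem was not called against pith parenchyma or xylem sclerenchyma by edgeR with all libraries. Phloem differed from pith parenchyma by -1.12 on the log2 scale (edgeR adjusted p = 0.171) and from xylem sclerenchyma by -1.05 (edgeR adjusted p = 0.446). The pith difference was called by limma (adjusted p = 0.00377), and by edgeR without epidermis replicate 2 (adjusted p = 0.0254). No member was called by edgeR for vascular parenchyma against pith parenchyma, where 7.17% of genes were, or for xylem sclerenchyma against pith parenchyma, where 2.89% were. In each of these pairs 2 members had an unadjusted p under 0.05 and DESeq2 called 2, while limma called 2 and 0. Of all 19502 genes, 4361 and 3341 had an unadjusted p under 0.05. DESeq2 called 3091 and 2014 of them all, and limma 4093 and 2341.

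Against whole stem, at 1136 ± 170 CPM (SD, n = 4), TST1 was called lower in 3 of the 5 types. All 5 types had lower means than the uncaptured whole stem, so cell type and capture cannot be told apart here. The log2 difference was -1.59 in phloem (SE 0.231, edgeR adjusted p = 0.00419), -1.37 in vascular parenchyma (SE 0.216, edgeR adjusted p = 0.00333) and -4.04 in epidermis (SE 0.683, edgeR adjusted p = 0.00622). In pith parenchyma it was -0.46 (edgeR adjusted p = 0.285), although the libraries of the pair did not overlap. In 1 fit of all 24 libraries the phloem and vascular parenchyma calls were lost (adjusted p = 0.0601 and 0.0713).

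TST2, the second vacuolar importer, had its highest captured mean in phloem. Phloem had 262, 347, 388 and 399 CPM, vascular parenchyma 68.1, 128, 139 and 30.7 CPM, and xylem sclerenchyma 192, 211, 155 and 228 CPM. Epidermis had 119, 0, 29.3 and 68.8 CPM, pith parenchyma 86.7, 677, 250 and 101 CPM, and whole stem 388, 520, 378 and 327 CPM. Phloem was above every vascular parenchyma, xylem sclerenchyma and epidermis library and overlapped whole stem, while pith covered the widest range because of replicate 2. The means were 349 ± 62.1 CPM in phloem, 91.6 ± 51.2 CPM in vascular parenchyma, 196 ± 31.5 CPM in xylem sclerenchyma, 54.3 ± 51.6 CPM in epidermis, 279 ± 275 CPM in pith parenchyma and 403 ± 82.0 CPM in whole stem (SD, n = 4 each).

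Against whole stem, TST2 was called in 1 of the 5 comparisons, vascular parenchyma, where it fell by 1.95 on the log2 scale (SE 0.435, edgeR adjusted p = 0.0134), a call lost in 1 fit of all 24 libraries (adjusted p = 0.245). In vascular parenchyma 19.7% of genes and 2 of 6 members were called, TST1 and TST2, both lower. In xylem sclerenchyma TST2 differed by -0.91 (edgeR adjusted p = 0.0166), short of the log2 difference of 1 required. There 9.32% of genes and 0 of 6 members were called by edgeR, 1 member had an unadjusted p under 0.05, and DESeq2 and limma called 0 members. Of all 19880 genes, 4231 had an unadjusted p under 0.05, DESeq2 called 3020 and limma 2340. In phloem, TST2 differed from whole stem by -0.15 (SE 0.192, edgeR adjusted p = 0.718) and from epidermis by 2.60 (edgeR adjusted p = 0.124), and neither passed. The epidermis difference was called by DESeq2 (adjusted p = 0.0278), limma (adjusted p = 0.015) and edgeR without epidermis replicate 2 (adjusted p = 0.0382).

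**Figure D3:**
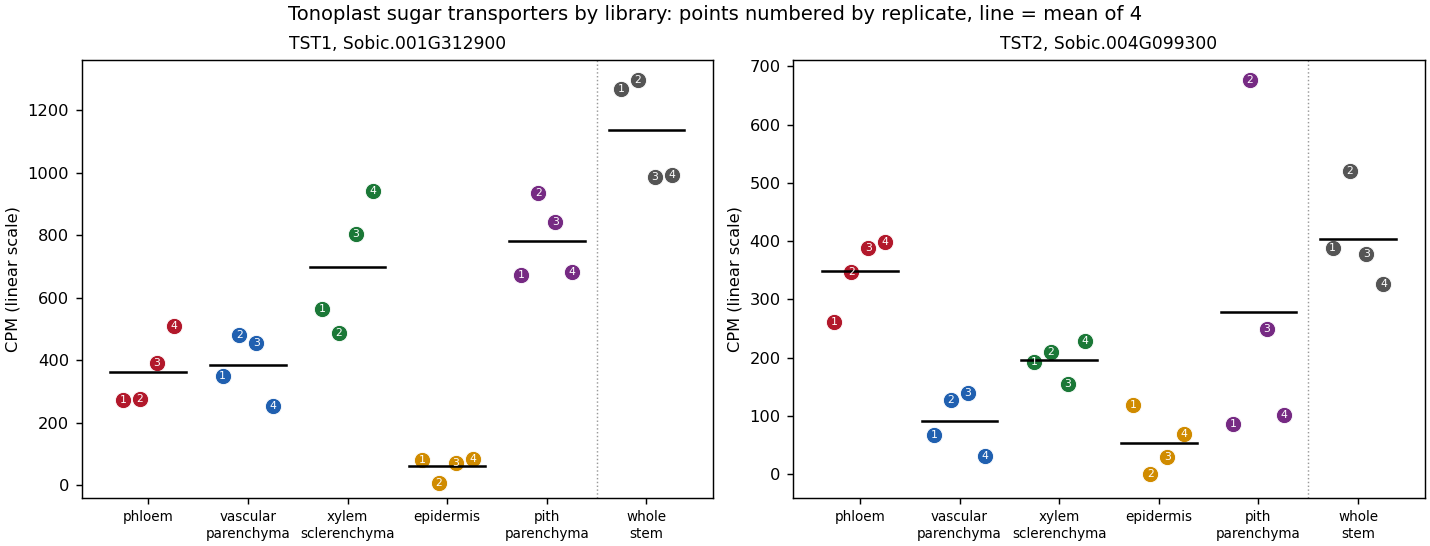
CPM of TST1 and TST2 in each library on linear axes, with the groups along the horizontal axis; points are libraries and bars are group means. TST1 is lowest in epidermis (7.13 to 85.4 CPM) and highest in whole stem (986 to 1297 CPM), while TST2 in phloem (262 to 399 CPM) overlaps whole stem (327 to 520 CPM).

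The balance of TST1 and TST2 also differed between libraries of phloem and most other groups. For every 100 counts of TST1, phloem libraries held 78.0 to 125 counts of TST2, against 30.5 to 40.1 in whole stem. The range was 12.1 to 30.6 in vascular parenchyma, 19.2 to 43.1 in xylem sclerenchyma and 12.9 to 72.3 in pith parenchyma. All 4 phloem libraries thus lay above all libraries of those 4 groups. The 3 epidermis libraries with at least 100 TST1 counts, at 40.6 to 149, overlapped phloem. These ratios compare the same genes between groups and carry no length correction, so a ratio near 100 does not mean equal numbers of transcripts, and no test was run on them.

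**Figure D4:**
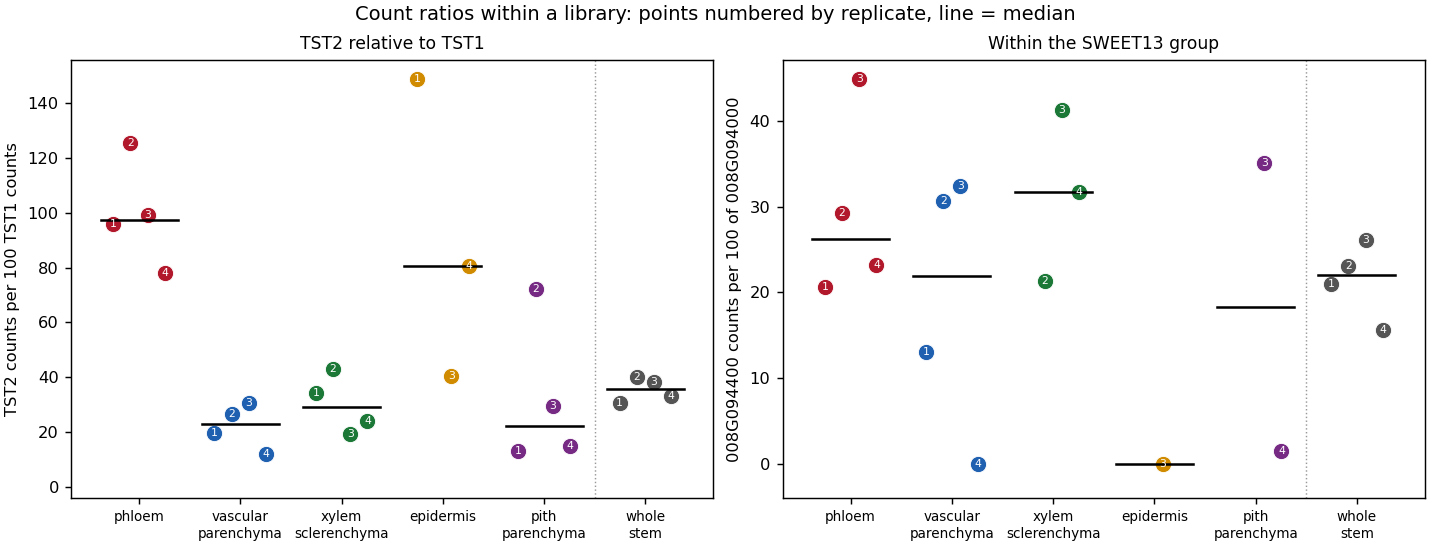
Count ratios in each library for TST2 per 100 counts of TST1 and for Sobic.008G094400 per 100 counts of Sobic.008G094000, in libraries with at least 100 counts of the denominator; points are libraries and bars are medians. The TST2 ratio is 78.0 to 125 in phloem and 30.5 to 40.1 in whole stem, whereas the ranges of the SWEET13 ratio, 20.7 to 44.9 in phloem and 15.6 to 26.1 in whole stem, overlap.

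TST3, the third vacuolar importer, was at 0 in 23 libraries, and the remaining library, whole stem replicate 3, held 2 counts, or 0.0713 CPM. It was too low to be tested, so 6 of the 7 members passed the filter on low counts.

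The members with the highest means over all libraries were TST1 and Sobic.008G094000, and the genes closest to each in pattern were sought over the 20 captured libraries by Pearson correlation of log2 CPM. These correlations describe libraries that share groups and depth, and carry no test. For TST1 the closest genes were Sobic.009G029500 (r = 0.94) and Sobic.003G184800 (r = 0.92), and its correlation with TST2 was 0.83. Sobic.009G029500 averaged 207 ± 41.9 CPM in pith parenchyma, 171 ± 22.3 CPM in xylem sclerenchyma, 6.95 ± 7.47 CPM in epidermis and 289 ± 41.7 CPM in whole stem (SD, n = 4 each), the same order as TST1. For Sobic.008G094000 the closest were Sobic.002G183400 (r = 0.95) and Sobic.005G228700 (r = 0.95). Sobic.005G228700 averaged 19416 ± 9696 CPM in phloem, 2340 ± 1125 CPM in vascular parenchyma, 2550 ± 3310 CPM in xylem sclerenchyma, 117 ± 89.7 CPM in epidermis, 167 ± 155 CPM in pith parenchyma and 1361 ± 452 CPM in whole stem (SD, n = 4 each). The other SWEET genes were less close to Sobic.008G094000, with r of 0.87 for Sobic.008G094300, 0.76 for Sobic.008G094400 and 0.68 for SWEET4-3, and its r with TST1 was 0.26.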

How the data were processed

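RNA was made into full-length cDNA libraries and sequenced in single-end reads of 150 bp, per the labels' protocols, which mention no molecular identifiers, so counting floors cover counting error only. The authors deposited estimated counts per gene, unnormalized; the submitters' processing notes name FastQC, Salmon and alevin, while no version, index, build or annotation is given in the sources used here. These expected counts, of which 10.5% (19.6% of those above 0) were more than 1e-06 from a whole number, were rounded before testing.

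Testing used R 4.3.3 and edgeR 4.0.16 (filterByExpr, TMM, robust quasi-likelihood), with Benjamini-Hochberg adjustment over all genes tested. The 20 captured libraries were fitted together for the test across types and the 10 pairwise contrasts. Each type was fitted with whole stem in 8 libraries. Calls needed an adjusted p under 0.05 and, in contrasts, a log2 difference of at least 1 in size. The SE is the log2 difference divided by the square root of F. A group at 0 was given a floor of 3 counts per library. The scripts were tested on simulated data.

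The alternatives were DESeq2 1.42.0, limma 3.58.1 (voom with sample quality weights), other size factors, no filter, thinning to 1 depth, a depth or replicate term, all 24 libraries together, and leaving out each library. The labels say that 4 plants were sampled but not that a number marks a plant. In none of 15 group pairs was every same-number correlation of deviations over 0.1 (range -0.11 to 0.19). Each library was also matched to the best correlated of the 4 libraries in every other group. Of these 120 matches, 42 fell on its own number. These values do not settle whether numbers pair the libraries, which were treated as unpaired. No same-group libraries agreed within sampling noise.

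Named genes were all 7 members, the 2 genes closest in pattern to each of the 2 members with the highest means, and identifiers numbered within the tandem group. The members, lists and tests were chosen with earlier results of these data known. The gene table used for names matched 0 members and 0 other genes, so no pathway or marker list was made, and positions, lengths and sequences are not given.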

Additional observations from a re-analysis of the deposited data

Results flagged for a closer look

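In each group of 4 libraries a member's highest or lowest value was checked for a large gap to the rest of its group (Dixon's test). Of 34 sets of values, 8 had such a library. The usual rate of about 1 in 20 assumes independent and normally distributed values. These sets share libraries and hold widely varying CPM, so the 8 cannot be set against that rate. Xylem sclerenchyma replicate 2 was the highest of its group in all 4 SWEET genes, at 617 CPM for Sobic.008G094000, 79.6 CPM for Sobic.008G094300, 132 CPM for Sobic.008G094400 and 290 CPM for SWEET4-3. This library was also the xylem library most like phloem across all genes, with a mean Spearman correlation of 0.737; the part of that likeness in these values was not tested.

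Epidermis replicate 1 was the highest of its group for Sobic.008G094400, at 15.7 CPM, and for SWEET4-3, at 25.9 CPM. Epidermis replicate 2 was the lowest of its group for TST1, at 7.13 CPM. Phloem replicate 3 was the highest of its group for Sobic.008G094300, at 229 CPM.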

How the results depend on the processing

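Across the 5 types, 3 members were called by edgeR, 5 by DESeq2, 6 by limma and 5 after thinning to 1 depth, and 3 to 5 when 1 library was left out. Of all 19502 genes, edgeR called 3129, DESeq2 4376 and limma 7723. DESeq2 and limma also called more genes than edgeR in every pair of types. The pairwise contrasts gave 10 calls over 60 tests. DESeq2 gave 21, limma 25 and the fit of all 24 libraries 18, while replicates 1 and 2 alone gave 0 (20 at an unadjusted p under 0.05) and replicates 3 and 4 alone gave 5. The 5 were TST1 and Sobic.008G094000 higher in phloem and in vascular parenchyma than in epidermis, and TST1 higher in xylem sclerenchyma than in epidermis. Against whole stem the 11 calls over 30 tests became 2 in the fit of all 24 libraries, and 9 to 13 when 1 library was left out. For the fit of all 24 libraries the shares of all genes at these thresholds are not given here. The same holds for replicates 1 and 2 alone and for replicates 3 and 4 alone. With the replicate block, the counts were 3 across types, 9 between types and 6 against whole stem. Calls not made with it were Sobic.008G094000 in xylem sclerenchyma against epidermis (edgeR adjusted p = 0.0925), Sobic.008G094300 in phloem (0.0867), epidermis (0.131) and pith parenchyma (0.318) against whole stem, and TST1 (0.0544) and Sobic.008G094000 (0.0775) in epidermis against whole stem. The numbers are not known to pair the libraries. The cause of these shifts was not tested. In replicates 3 and 4 alone, Sobic.008G094000 in xylem sclerenchyma against pith parenchyma changed sign, to -0.079 on the log2 scale against 4.18 with all replicates. Other size factors moved the median of all genes by over 0.1 only in phloem against epidermis, by 0.148, and changed none of the 3 counts. Of 1169 single-gene alternatives, 1033 kept direction and call, 67 gained a call and 68 lost one. For a gene at 0, a floor of 3 counts per library was taken as the highest level that a count of 0 allows.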
